A study of Mus musculus with 8 samples.

Results

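The genes described here are 10 classical marker genes of the alveolar type 1 cell, Hopx, Pdpn, Ager, Cav1, Clic5, Rtkn2, Akap5, Emp2, Vegfa and Gprc5a. They were chosen by name, as well known markers, at a time when earlier results of these data were known. Each was read from the probe set whose annotation gives that symbol alone, and each had 1 such probe set, so all 10 were measured among the 19938 genes of the table. The samples were epithelial cells of mouse lungs at E18.5, late in gestation, selected with magnetic beads against the surface protein Epcam, in 4 control arrays and 4 knockout arrays. In the knockout group, labelled Mst1/2 CKO, the Hippo kinases Mst1 and Mst2 had been conditionally deleted with ShhCre, a Cre recombinase made where Shh is expressed, which includes the progenitor cells of the lung epithelium. The labels call the other group Control and name each array a biological replicate. They give neither the alleles of the control group nor whether an array stands for 1 animal. The p-values then measure only the spread between these arrays, which may be technical in part.

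Type 1 cells are the very flat cells that cover most of the gas exchange surface of the lung. Type 2 cells are cuboidal and make surfactant, and both arise from distal epithelial progenitors before birth. The Hippo kinases act through Lats kinases to hold back the coactivators Yap and Taz, which work with DNA-binding Tead factors. The comparison asks how the transcripts of the type 1 cell stand in lung epithelium that lacks Mst1 and Mst2.

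Values are log2 expression, in which a step of 1 is a doubling, and a difference is the knockout mean minus the control mean, with the standard error (SE) that limma gives and n = 4 arrays in either group. A gene passed the test where limma's p-value was below 0.05 after Benjamini-Hochberg adjustment for all genes tested. The median level of the arrays lay between 7.21 and 7.30. Stk4, which encodes Mst1, was between 9.59 and 9.84 in control and between 9.24 and 9.45 in knockout arrays. It passed as lower (−0.30, SE 0.076, limma adjusted p = 0.0188). Its probe set may lie outside the deleted part, which was not examined, so this fall does not check the deletion. The gene of Mst2, Stk3, was not among the 19938 genes of the table. The epithelial genes Epcam, Cdh1 (E-cadherin) and Nkx2-1, a transcription factor of lung epithelium, differed by 0.01 (SE 0.097), −0.0041 (SE 0.053) and −0.05 (SE 0.085) and did not pass.

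Of the 10 type 1 genes 8 rose in the knockout cells, 0 fell, and Emp2 and Cav1 did not pass limma's test. At an unadjusted p below 0.05 it was 9 that rose and 0 that fell, against 2757 and 3138 of all 19938 genes. After adjustment 8.6% of all genes rose and 10.2% fell in limma's test. All 10 differences were positive, from 0.14 to 0.72, with a median of 0.38 against −0.02 over all genes. In 9 of the 10 genes every knockout array lay above every control array, which was so for 10.2% of all genes. The changes were small, between 1.11-fold and 1.65-fold. In these bulk samples more cells of a type and more RNA per cell cannot be told apart.

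**Figure D1:**
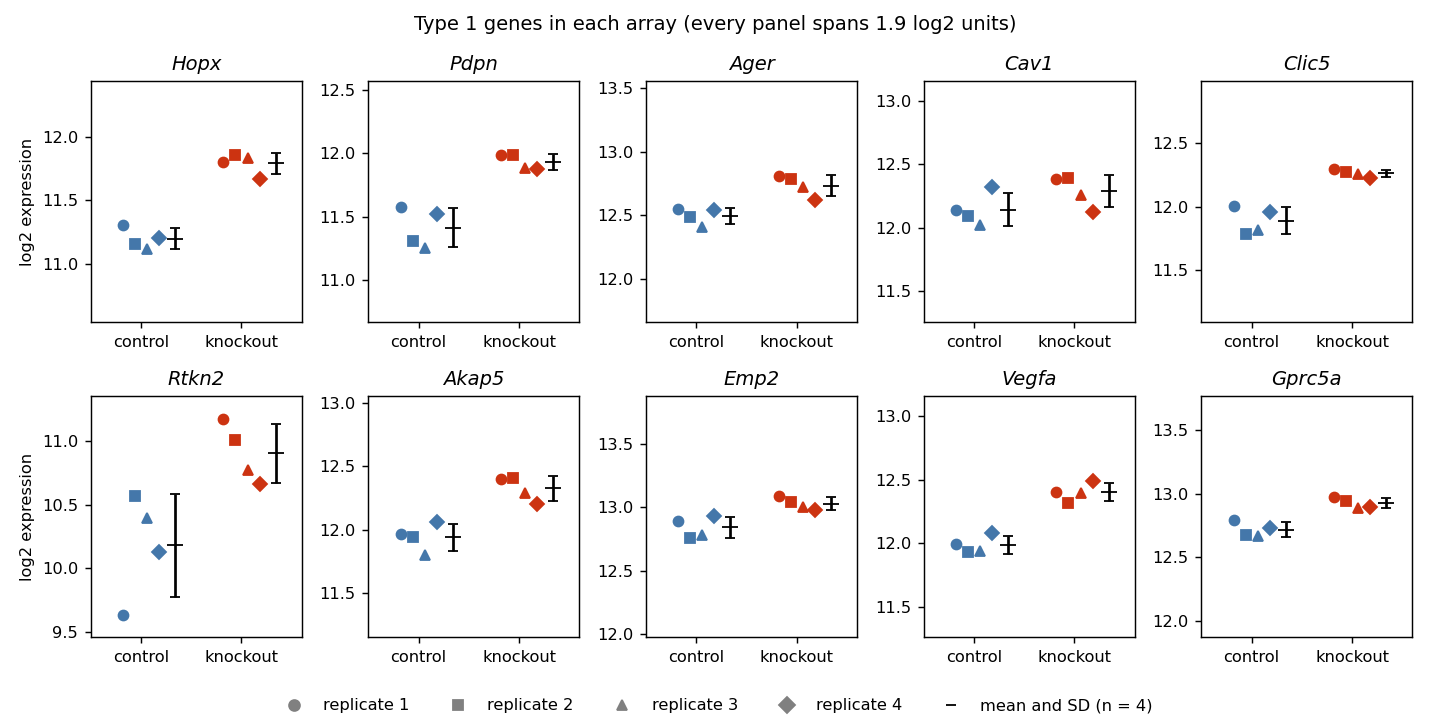
Log2 expression of each type 1 gene in the 4 control arrays (blue) and the 4 knockout arrays (red), with marker shapes for the replicate numbers and black bars for the mean and SD of each group (n = 4). The groups overlap in Cav1 alone, and Rtkn2 has the widest spread, with control replicate 1 at 9.63.

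Promoter windows are shown for the 4 genes with the smallest p among those that rose. RefSeq (GRCm38.p6) held windows of 300 bases, from 250 before to 50 after a transcription start, for 8 of the 10 genes, 11 windows in all. Both windows of Hopx are printed, and of Vegfa the outer one. Each is printed 5′ to 3′ on the strand of its gene, and capitals mark a match on either strand to the Tead motif GGAATG, the AP-1 motif TGANTCA or the Nkx2-1 motif CAAGTG.
Hopx, outer start (chr5:77115074-77115373, minus strand): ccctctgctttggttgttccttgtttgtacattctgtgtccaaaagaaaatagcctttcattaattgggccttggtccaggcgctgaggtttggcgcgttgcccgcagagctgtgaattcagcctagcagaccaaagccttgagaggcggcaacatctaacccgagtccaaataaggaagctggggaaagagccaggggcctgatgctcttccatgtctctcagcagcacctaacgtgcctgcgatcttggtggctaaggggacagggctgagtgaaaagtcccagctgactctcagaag
Hopx, inner start (chr5:77095218-77095517, minus strand): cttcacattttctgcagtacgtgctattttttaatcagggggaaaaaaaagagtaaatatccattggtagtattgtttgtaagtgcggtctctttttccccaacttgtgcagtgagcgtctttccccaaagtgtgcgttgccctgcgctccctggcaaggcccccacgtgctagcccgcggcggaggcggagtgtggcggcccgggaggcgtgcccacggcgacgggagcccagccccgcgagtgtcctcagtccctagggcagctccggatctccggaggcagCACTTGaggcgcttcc
Vegfa, outer start (chr17:46032328-46032627, minus strand): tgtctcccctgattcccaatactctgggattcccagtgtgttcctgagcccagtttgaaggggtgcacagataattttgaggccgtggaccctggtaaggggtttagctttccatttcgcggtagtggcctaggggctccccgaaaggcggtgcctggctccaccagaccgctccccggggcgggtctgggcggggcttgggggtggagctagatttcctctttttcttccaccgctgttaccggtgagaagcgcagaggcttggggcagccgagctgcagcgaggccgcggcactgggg
Pdpn (chr4:143299515-143299814, minus strand): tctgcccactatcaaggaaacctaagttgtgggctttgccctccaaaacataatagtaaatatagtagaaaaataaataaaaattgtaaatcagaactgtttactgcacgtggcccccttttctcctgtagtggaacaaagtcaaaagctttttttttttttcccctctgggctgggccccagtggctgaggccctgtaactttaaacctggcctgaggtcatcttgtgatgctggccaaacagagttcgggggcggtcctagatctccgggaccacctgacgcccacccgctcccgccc
Clic5 (chr17:44188322-44188621, plus strand): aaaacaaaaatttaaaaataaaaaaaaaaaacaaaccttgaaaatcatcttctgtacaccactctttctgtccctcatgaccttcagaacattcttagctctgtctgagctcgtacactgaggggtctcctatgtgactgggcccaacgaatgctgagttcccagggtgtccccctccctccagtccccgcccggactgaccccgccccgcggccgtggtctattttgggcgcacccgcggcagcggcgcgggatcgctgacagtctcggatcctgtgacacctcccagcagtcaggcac
The single match in the 11 windows was one to the Nkx2-1 motif, 34 bases downstream of the inner start of Hopx and on the opposite strand. The Tead motif was found in 0 of the 11 windows, against 14.7% of all 32851 windows of that length, and the AP-1 motif in 0 against 7.81%. The Nkx2-1 motif was in 13.6% of all windows. A match is no more than a run of letters in this short stretch, and its lack says nothing of enhancers farther away. The 2 Hopx windows differ in base composition, with 8 CpG dinucleotides in the outer and 21 in the inner one, against a median of 7 over all windows. The probe set does not tell transcripts from these starts apart.

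Hopx, an atypical homeodomain protein that does not bind DNA itself, was the gene with the smallest p of the 10. Its control values were 11.31, 11.16, 11.12 and 11.20 in replicates 1 to 4 and its knockout values 11.80, 11.86, 11.83 and 11.67. The groups were far apart, with a gap of 0.36 between the highest control and the lowest knockout array. Hopx rose 1.51-fold (0.59, SE 0.066, 95% interval 0.45 to 0.74, limma adjusted p = 1.22e-04). It was also the only one of the 10 that passed under all 18 alternative settings, which gave differences of 0.561 to 0.655 and adjusted p between 7.24e-05 and 0.0456.

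Of the genes for proteins of the cell surface, Pdpn rose most. Pdpn encodes podoplanin, a mucin-type glycoprotein of the apical membrane that binds proteins of the actin cortex. It read 11.58, 11.31, 11.25 and 11.52 in control and 11.99, 11.99, 11.88 and 11.88 in knockout arrays. The control arrays were spread over more of the scale than the knockout arrays, and the groups did not overlap. Pdpn rose 1.43-fold (0.52, SE 0.080, limma adjusted p = 0.00101).

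Ager encodes the receptor for advanced glycation end products, which lies in the basal membrane of type 1 cells. It read 12.55, 12.48, 12.41 and 12.54 in control and 12.81, 12.78, 12.72 and 12.62 in knockout arrays. The lowest knockout array, replicate 4, was only 0.08 above the highest control array. Ager rose 1.18-fold (0.24, SE 0.062, limma adjusted p = 0.0212), and the call ended without control replicate 3 (0.21, adjusted p = 0.0648) and without knockout replicates 1, 2 or 3 (0.21, 0.22 and 0.24, adjusted p = 0.0628, 0.0638 and 0.0520).

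Gprc5a, an orphan receptor of the G protein-coupled family that retinoic acid induces, read 12.79, 12.68, 12.67 and 12.73 in control arrays. In knockout arrays it read 12.98, 12.95, 12.89 and 12.90. Both groups were tight and did not overlap. It rose 1.16-fold (0.21, SE 0.055, limma adjusted p = 0.0231), a call that ended without control replicates 2 or 3 (0.20 and 0.19, adjusted p = 0.0584 and 0.0665) and without knockout replicates 1 or 2 (0.19 and 0.20, adjusted p = 0.0673 and 0.0640).

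Emp2, a tetraspan membrane protein that affects integrins and caveolins, read 12.89, 12.76, 12.78 and 12.93 in control and 13.09, 13.04, 13.00 and 12.98 in knockout arrays. The groups did not overlap, with 0.05 between them, yet the gene just missed the threshold (0.19, SE 0.060, 95% interval 0.05 to 0.32, limma adjusted p = 0.0548). It passed without control replicate 4 (0.22, adjusted p = 0.0438) and without knockout replicate 4 (0.20, adjusted p = 0.0493).

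Cav1 encodes caveolin 1, which shapes the many caveolae of type 1 cells and is also abundant in endothelium and fibroblasts. It read 12.14, 12.09, 12.02 and 12.32 in control and 12.38, 12.39, 12.26 and 12.12 in knockout arrays. Knockout replicate 4 lay among the controls and control replicate 4 above 2 of the knockout arrays. The difference did not pass (0.14, SE 0.083, 95% interval −0.04 to 0.33, limma adjusted p = 0.291), and the interval still allows a rise of the size seen in Ager. The other caveola genes gave a different count. Of 8 measured, the coat proteins Cavin1 (0.46, SE 0.095), Cavin2 (0.62, SE 0.13) and Cavin3 (1.22, SE 0.11), the ATPase Ehd2 (0.70, SE 0.076) and Cav2 (0.38, SE 0.084) rose, 0 fell and 3 did not pass, with a median of 0.42. Cavin2 and Cav2 were named after their values were seen. Cavin3 went from 9.43, 9.25, 8.87 and 9.06 to 10.37, 10.46, 10.20 and 10.48. Whether Cav1 changed less than these genes was not tested.

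Among the other intracellular proteins, Clic5, a member of the chloride intracellular channel family that associates with the actin cortex, had the tightest knockout values of the 10 genes. It read 12.01, 11.78, 11.82 and 11.96 in control and 12.30, 12.27, 12.26 and 12.23 in knockout arrays, with no overlap. It rose 1.29-fold (0.37, SE 0.064, limma adjusted p = 0.00212).

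Akap5, an anchoring protein that holds protein kinase A and the phosphatase calcineurin at the membrane, read 11.97, 11.94, 11.80 and 12.06 in control and 12.40, 12.41, 12.29 and 12.21 in knockout arrays. All knockout arrays were higher than all control arrays. It rose 1.31-fold (0.39, SE 0.073, limma adjusted p = 0.00365). Of 13 genes for binding partners of podoplanin, Ager and Akap5, 4 rose, 0 fell and 9 did not pass (median 0.18), with 6 higher and 1 lower at an unadjusted p below 0.05. For Akap5, the calcineurin subunit Ppp3ca rose by 0.39 (SE 0.069) and the regulatory subunit Prkar2a of protein kinase A by 0.43 (SE 0.088). The other regulatory subunit, Prkar2b, named after its values were seen, differed by 0.22 (limma adjusted p = 0.327) and did not pass.

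Rtkn2, a gene of the rhotekin family, had the largest difference and the largest spread of the 10 genes. It read 9.63, 10.57, 10.40 and 10.13 in control and 11.18, 11.01, 10.77 and 10.66 in knockout arrays. The groups did not overlap, but the distance between them was 0.10 while the control arrays alone covered almost a full log2 unit. It rose 1.65-fold (0.72, SE 0.18, 95% interval 0.32 to 1.13, limma adjusted p = 0.0182). Without control replicate 1, its lowest array, the difference was 0.54 (adjusted p = 0.0250). Without knockout replicates 1 and 4 together the call ended (0.71, adjusted p = 0.0580). Its relative Rtkn moved the other way, from 9.67, 9.74, 9.37 and 9.14 to 8.92, 8.69, 8.83 and 8.41 (−0.77, SE 0.14, limma adjusted p = 0.00352), and was named after its values were seen.

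Vegfa was the only secreted factor of the 10, the growth factor with which type 1 cells signal to the capillaries beside them. It read 11.99, 11.93, 11.94 and 12.08 in control and 12.41, 12.31, 12.40 and 12.49 in knockout arrays. Knockout replicate 4, the lowest knockout array in 8 of the 10 genes, was the highest for Vegfa. It rose 1.34-fold (0.42, SE 0.062, limma adjusted p = 7.51e-04).

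**Figure D2:**
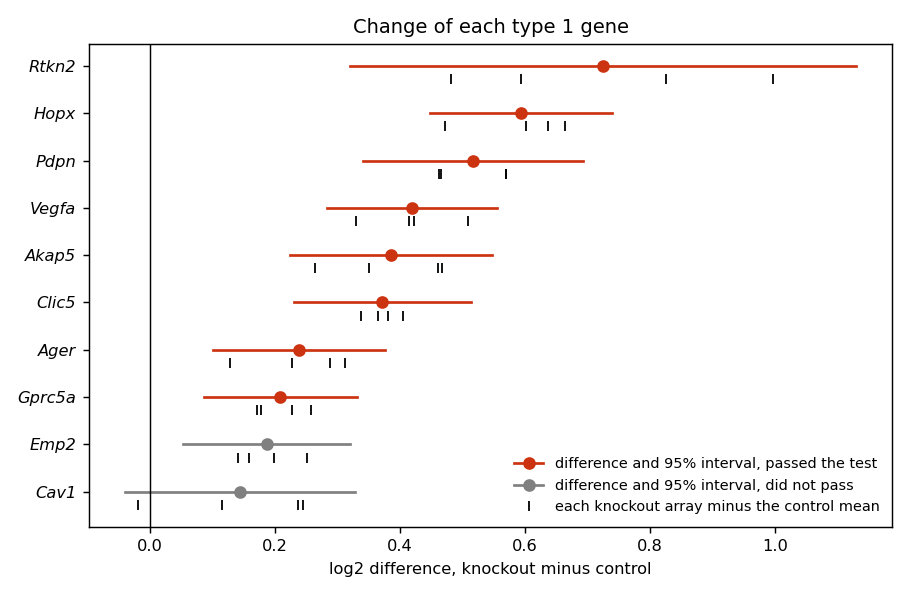
Log2 difference of each type 1 gene, knockout minus control, with limma's 95% interval (red where the gene passed the test, grey where it did not), and under it the 4 knockout arrays minus the control mean (black ticks). The genes range from 0.14 for Cav1, whose interval includes 0, to 0.72 for Rtkn2.

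Whether the 10 genes changed by unequal amounts was tested in pairs. The change of one was set against that of another within each array, which cancels a shift of the whole array, for all 45 pairs in an exact two-sided permutation test. In 22 pairs the groups did not overlap, with an exact permutation p of 0.0286, the smallest that 4 against 4 arrays can give. After Benjamini-Hochberg adjustment over the 45 pairs that p was 0.0584, so 0 pairs passed and no order of the changes is shown. The adjusted p could have fallen below 0.05 only with more pairs at that smallest value. For pairs, the SE and 95% interval come from an ordinary pooled two-sample t calculation, not from limma, and are not adjusted for the 45 pairs. Among the 22 pairs, the difference of Hopx exceeded that of Ager by 0.35 (SE 0.034, 95% interval 0.27 to 0.44), that of Cav1 by 0.45 (SE 0.071) and that of Emp2 by 0.41 (SE 0.050). The difference of Pdpn exceeded that of Ager by 0.28 (SE 0.053), and that of Vegfa exceeded that of Emp2 by 0.23 (SE 0.054). Outside the 22, the changes of Ager and Gprc5a differed by 0.03 (95% interval −0.05 to 0.11) and those of Ager and Emp2 by 0.05 (−0.03 to 0.13). Pairs with Rtkn2 had the widest intervals, from −0.77 to 0.51 for Hopx minus Rtkn2.

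The other type 1 genes moved in the same direction. The list of 34 measured genes holds none of the 10, but it was chosen with earlier results of these data known, so its direction is not independent evidence. Of its members 29 rose, 0 fell and 5 did not pass (31 higher and 0 lower at an unadjusted p below 0.05), with a median of 0.65. The 6 with the smallest p were Igfbp2, which binds insulin-like growth factors (2.35, SE 0.065), S100a6, a calcium-binding protein (1.71, SE 0.080), Scnn1b, the beta subunit of the epithelial sodium channel (0.90, SE 0.067), Pxdc1, a protein with a PX domain (1.20, SE 0.099), Anxa1, an annexin that limits inflammation (0.92, SE 0.082), and Sema3e, a guidance molecule (1.04, SE 0.10). Scnn1b read 10.52, 10.46, 10.39 and 10.56 in control and 11.36, 11.43, 11.26 and 11.49 in knockout arrays. Each of these 6 genes had a larger difference than every one of the 10 classical genes, but they were picked from the 34 by their small p. Whether the lists changed by unequal amounts was not tested. The members that did not pass, named after their values were seen, were Timp3 (0.15), Tns1 (0.15), Icam1 (0.20), Cldn18 (−0.06) and Dpysl2 (−0.07).

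**Figure D3:**
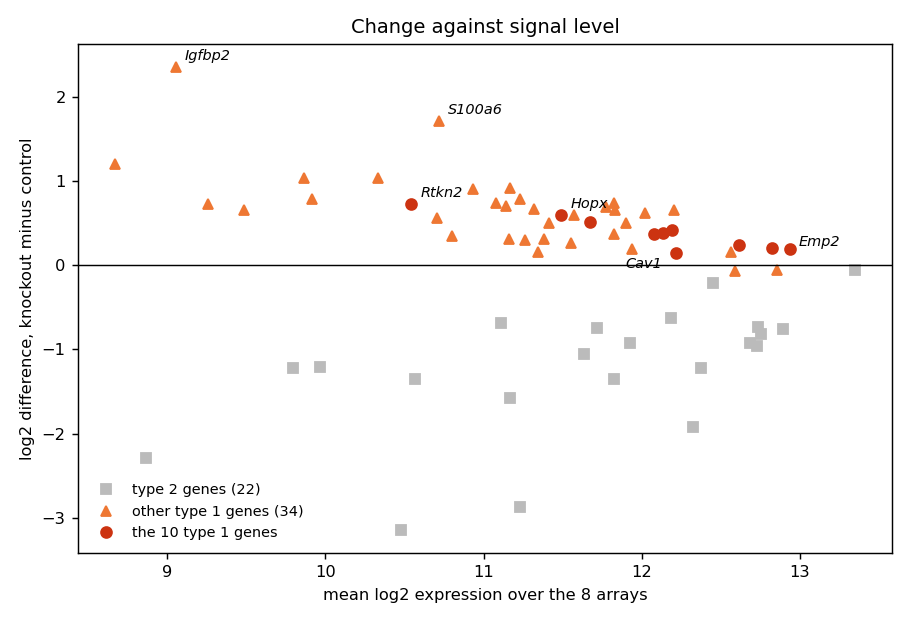
Log2 difference (knockout minus control) against the mean log2 expression over the 8 arrays for the 10 type 1 genes (red circles), 34 other type 1 genes (orange triangles) and 22 type 2 genes (grey squares). Igfbp2 lies at 2.35 and Emp2 at 0.19, and many type 2 genes in the same range of levels lie below −0.5. Signals of different probe sets do not compare as amounts of RNA.

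Family relatives of the 10 genes moved in both directions. Of 14 measured, 4 rose, 5 fell and 5 did not pass (median 0.16). Within the Clic family, Clic6 (−0.55, SE 0.073) and Clic4 (−0.42, SE 0.064) fell, while Clic3 (0.38, SE 0.070) and Clic1 (0.32, SE 0.066), named after their values were seen, rose with Clic5. Akap13, an anchoring protein of protein kinase A, rose (0.46, SE 0.062). Emp1, of the same protein family as Emp2, rose by 0.50 (SE 0.076, named after its value was seen).

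Of 11 genes of Vegf ligands, receptors and the hypoxia factors, 3 rose, 3 fell and 5 did not pass (median 0.17). Epas1, a hypoxia-inducible factor that can drive Vegfa, went from 10.44, 10.57, 10.60 and 10.48 to 9.72, 9.80, 9.64 and 10.08 (−0.71, SE 0.092, limma adjusted p = 3.44e-04), opposite to Vegfa. The receptor Flt1, an endothelial gene, rose by 0.43 (SE 0.084) and the ligand Vegfc by 0.27 (SE 0.060). Both of these calls ended when the mean of the mesenchymal markers was a covariate (0.29 and 0.22, adjusted p = 0.102 and 0.136). They also ended with the mean of the endothelial markers (0.12 and 0.20, adjusted p = 0.725 and 0.514), as did that of Epas1 (−0.68, adjusted p = 0.0804). Among the binding partners counted with Akap5, Msn, which encodes moesin and links podoplanin to actin, rose by 0.34 (SE 0.083, limma adjusted p = 0.0157). From the same list, Ezr (0.17), Clec1b (0.16), Rdx (−0.12) and Cd44 (−0.32, limma adjusted p = 0.0603), named after their values were seen, did not pass. Cd44 was lower in every knockout array than in any control array.

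Most type 2 genes went down in the same arrays. Of 22 measured, 20 fell and 0 rose, both after adjustment and at an unadjusted limma p below 0.05 (median −1.01), among them S100g, a calcium-binding protein (−2.29, SE 0.18), Fabp5, a fatty acid-binding protein (−1.58, SE 0.12), and Ppp1r14c, a phosphatase inhibitor (−1.22, SE 0.094). Sftpc (−0.055, SE 0.051, limma adjusted p = 0.553) and Ctsh (−0.22, SE 0.10, limma adjusted p = 0.202) did not pass. Both were picked out with their values in view. The mean level of Sftpc was 13.35, close to the highest gene value of an array, 13.48 to 13.64. Other type 2 genes with high control means passed as lower. Lyz1 (control mean 13.28), Dlk1 (13.27), Cxcl15 (13.21) and Slc34a2 (13.17) differed by −1.92, −0.75, −0.96 and −0.82. These examples too were selected with the results at hand. Whether the probe set of Sftpc responds in full at its level was not tested. The type 2 list too was chosen with earlier results known, so its direction is not independent evidence. The mean of the 10 type 1 genes was 11.89, 11.87, 11.82 and 11.95 in control and 12.33, 12.30, 12.23 and 12.18 in knockout arrays. The mean of the type 2 genes was 12.28, 12.39, 12.27 and 12.16 in control and 11.44, 11.03, 11.10 and 10.69 in knockout arrays. Knockout replicate 1 was thus the highest knockout array for both lists and replicate 4 the lowest for both. Without both of these arrays 6 of the 10 type 1 genes rose.

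Some markers of endothelial, mesenchymal and mesothelial cells rose as well. Among 12 endothelial markers 4 rose and 0 fell (9 and 0 at an unadjusted limma p below 0.05), and their mean was 8.90 to 9.21 in control and 9.24 to 9.35 in knockout arrays, without overlap. Of 12 mesenchymal markers 4 rose and 0 fell (8 and 0 unadjusted), with means of 8.80 to 9.29 against 9.12 to 9.62. Of 6 mesothelial markers 2 rose, Msln and Krt19, which lung epithelium also expresses and of which Krt19 is in the type 1 list too, with means of 9.06 to 9.61 against 9.52 to 9.90. Of 5 lymphatic markers 0 rose and 1 fell (2 and 1 unadjusted), with means of 7.16 to 7.23 against 7.22 to 7.35. On arrays no marker reads 0, and the marker genes' own backgrounds are not known.

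With the mesenchymal mean as a covariate 5 of the 10 type 1 genes rose, where Ager (0.30, adjusted p = 0.0533), Rtkn2 (0.85, adjusted p = 0.0613) and Gprc5a (0.25, adjusted p = 0.0697) no longer passed and none of the 3 had a smaller difference than without it. With the endothelial mean as a covariate Hopx alone rose (0.56, adjusted p = 0.0456). In that fit Cav1 differed by 0.01, Emp2 by 0.085, Vegfa by 0.27, Pdpn by 0.34 and Rtkn2 by 1.20, and 184 genes rose over the whole table in place of 1715. The calls of Cavin1, Clic4, Clic6, Akap13, Msn, Ppp3ca and Prkar2a also ended in it, with no change of sign. The endothelial mean separates the groups by itself, so in that fit the covariate and the group share most of their variation. Apart from these fits, the part of carried-over cells in the type 1 result was not tested.

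**Figure D4:**
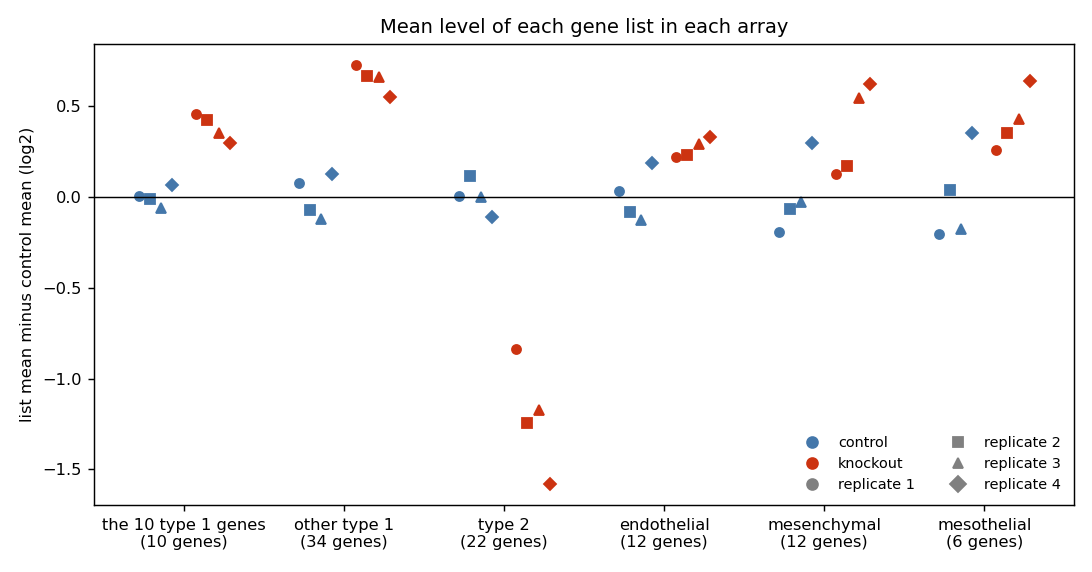
Mean log2 level of 6 gene lists in each array minus the mean of the control arrays for that list, with control arrays in blue, knockout arrays in red and a marker shape for each replicate number. Both type 1 lists are higher in all knockout arrays and the type 2 list lower, while the mesenchymal and mesothelial lists overlap between groups and the endothelial list just separates.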

How the data were processed

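Single-colour arrays measured RNA labelled with biotin in 8 samples, 4 control and 4 knockout. The authors deposited log2 values for 35556 probe sets; the log2 scale was read from the values. Normalization, software and genome build were not given in the sources used here. All arrays already had nearly equal distributions, so no scaling was applied, and each difference is relative to the whole array. Of the probe sets, 21789 have 1 gene symbol in the platform annotation, 1621 several and 12146 none here. The brightest probe set per symbol was kept, which gave 19938 genes. RefSeq gene numbers matched 21698 probe sets and changed 0 symbols.

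The knockout effect was fitted per gene with limma 3.58.1 (lmFit, eBayes; R 4.3.3), two-sided and without covariates. Member pairs were compared by exact permutation over 70 assignments (scipy 1.17.1, Python 3.11.15). The labels name no batch. The fit was tested on simulated data. The number of arrays limits the precision. Members, gene lists, tests and alternatives were chosen with earlier results of these data known. Named genes were all members, the 6 other type 1 genes with the smallest p, and the 3 of each further list (caveola, Vegf, relatives, partners, type 2). Alternatives were a replicate block, 2 scalings, another variance moderation, a level filter, averaged probe sets, 3 covariates and left-out arrays. Further lists (club, ciliated, neuroendocrine, basal, leukocyte, erythroid and sex-linked genes) are given in the closing section.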

Additional observations from a re-analysis of the deposited data

How the results depend on the processing

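Of the 10 type 1 genes 8 rose, and this number was 7 with the replicate number as a block, 8 with arrays centred on their medians, after quantile normalization, with averaged probe sets and with Xist as a covariate, 9 with trend and robust moderation (Emp2 adjusted p = 0.0411) and among genes above the median level (Emp2 0.0395), and 6 to 9 without any 1 array. It was 5 with the mesenchymal and 1 with the endothelial marker mean as a covariate. Over all genes the mesenchymal covariate left 824 higher and 1027 lower, and the endothelial covariate 184 higher and 345 lower, against 1715 and 2031. Over the 18 alternatives no difference of the 10 genes changed sign and 0 of them fell in any. The endothelial covariate left 8 of the 29 risen other type 1 genes and 8 of the 20 fallen type 2 genes. With the replicate block Gprc5a did not pass (adjusted p = 0.0540), and 1595 genes rose and 1899 fell. Same-numbered arrays shared only a number, with correlations of their deviations between −0.08 and 0.10. No control array correlated best with the knockout array of its own number, and of the knockout arrays replicate 2 alone did so with its control. The arrays give no depth, and signal over background is not known.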

Other observations

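In the remaining epithelial lists, airway and basal genes differed as follows. Of 8 club cell markers 4 fell and 0 rose in limma's test (6 and 0 at an unadjusted p below 0.05, median −0.43). Of 8 ciliated cell markers 4 fell and 0 rose (6 and 0 unadjusted, median −0.28). Of 6 basal cell markers 2 rose and 0 fell, also unadjusted (median 0.09), and of 4 neuroendocrine markers 1 rose and 1 fell (median −0.12). Of 8 leukocyte markers 1 rose and 1 fell, the latter being Lyz2, which is also in the type 2 list. Of 2 measured erythroid genes 0 passed, with 1 at an unadjusted p below 0.05, and of 4 sex-linked genes 0 passed, with 0 unadjusted.

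Within the 10 type 1 genes, brighter probe sets tended to go with smaller differences, although signals of different probe sets do not compare as amounts of RNA. Cav1, with the smallest difference (0.14), had a mean level of 12.22, below those of Emp2, Gprc5a and Ager. The test in pairs showed no order of the changes. Spearman's rho between the mean level and the difference was −0.88 over the 10 genes and −0.66 over the 34 other type 1 genes, as a description across genes that share the same 8 arrays. Over all 1715 genes that rose it was −0.01. Of the 10 genes 7 had a mean level between 12 and 13, a range that holds 135 genes, of which 15.6% rose and 15.6% fell. The median rise there was 0.31 over 21 genes that rose, and the largest was 0.75 (Msln). In the ranges of level below 12 the median rise lay between 0.35 and 0.41. The highest gene value of an array was 13.48 to 13.64. Whether the probe sets respond in full at these levels was not tested.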
